A study of Mus musculus with 26 samples.

Results

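The early response to retinoic acid was followed in KH2 cells, an established mouse embryonic stem cell line, whose genotype is labelled NAP1L1 alpha knock-out. Nap1l1 encodes a histone chaperone of the nucleosome assembly protein family, and the labels do not say what alpha stands for. The 3 libraries of this knockout (alphaKO) at day 2 of retinoic acid differentiation were set against its 3 libraries at day 0, which makes 6 of the 26 libraries of the series. They were chosen by their sample titles, and no measured value entered that choice. KH2 cells labelled wild-type (WT) and NAP1L1 knock-out (fullKO), sampled at days 0, 2 and 4, make up the rest together with alphaKO at day 4. WT and fullKO at days 0 and 2 were used to ask where the response of alphaKO differs, with 3 libraries a group and 2 for fullKO at day 0. Each knockout is 1 line whose libraries share a name prefix, and it may be 1 clone, so genotype and line cannot be told apart. Day, retinoic acid and time in culture changed together, and their parts cannot be told apart either. The dose of retinoic acid is not given in the sources used here. Nothing in the labels states that the replicates are separate cultures, so the p-values measure only the spread between these libraries, which may be technical.

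Stranded mRNA libraries were sequenced, and the 6 alphaKO libraries held 17400607 to 20569706 counts each. Levels are given as CPM, counts scaled by library size, and changes as log2 fold changes of day 2 against day 0 with a standard error (SE). The SE was worked back from the test statistic and is a rough guide for genes near 0. A gene is said to have risen or fallen where its Benjamini-Hochberg adjusted p in edgeR's quasi-likelihood test was under 0.05. Of 18412 genes tested, 6349 rose (34.5%) and 6172 fell (33.5%), so 68.0% were called in one direction or the other. At least a 2-fold change was seen for 3101 genes that rose (16.8%) and 2227 that fell (12.1%). The libraries of the days did not overlap for 70.4% of all genes. These shares are the background for every count of members below. The median log2 fold change over all genes was 0.04, and 406 genes rose and 145 fell by 4 or more on the log2 scale. Transcripts of the mitochondrial chromosome made up 1.42 to 1.58% of counts at day 0 and 1.95 to 2.04% at day 2. Of the 149 genes given values below, the libraries of the days overlapped for 4, Nap1l1, Lef1, Pdgfrb and Cdkn1a, and for the others every library of one day lay above every library of the other day. In bulk RNA, fewer cells of a type and less RNA per cell cannot be told apart.

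Retinoic acid is a vitamin A derivative that patterns the embryo and drives embryonic stem cells out of pluripotency. Inside the cell it binds heterodimers of retinoic acid receptors (RAR) and retinoid X receptors (RXR), which sit on response elements built from direct repeats of a short half-site and switch from repression to activation. Cyp26 enzymes break it down, so the pathway feeds back on its own ligand, and the Hox clusters are its best known targets.

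Promoter sequences were taken from RefSeq (GRCm38.p6) to show where such elements lie beside genes with large changes. Of 49 genes in the 3 retinoic acid lists, 34 had a window from 250 bases before to 50 after a start, 53 windows in all, and these were searched on both strands for direct repeats of the receptor half-site spaced by 1, 2 or 5 bases (DR1, DR2 and DR5). A DR5 was found in 2 of them, Rarb and Cyp26a1, against 0.115% of the 27025 genes in the table. No DR1 or DR2 was found in these windows, which says nothing of sites elsewhere. The Oct-Sox composite element, an octamer and a Sox motif side by side, was searched in the same way in the windows of 19 of 29 pluripotency genes and was found in Nanog, against 0.174% of all genes. The 250 bases before the start of these 3 genes are shown on the gene's own strand, with the match in capitals. Whether these elements had a part in the changes was not tested. The Rarb stretch is chr14:16575477-16575726 (minus strand), the Cyp26a1 stretch chr19:37697558-37697807 (plus strand, with the repeat read on the other strand) and the Nanog stretch chr6:122707239-122707488 (plus strand). A match is a description of the letters and not a measured binding site.
Rarb: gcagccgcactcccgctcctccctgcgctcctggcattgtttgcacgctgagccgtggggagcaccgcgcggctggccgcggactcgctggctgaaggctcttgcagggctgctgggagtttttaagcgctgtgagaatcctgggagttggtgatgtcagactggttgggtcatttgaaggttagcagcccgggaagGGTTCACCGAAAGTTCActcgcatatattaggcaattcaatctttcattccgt
Cyp26a1: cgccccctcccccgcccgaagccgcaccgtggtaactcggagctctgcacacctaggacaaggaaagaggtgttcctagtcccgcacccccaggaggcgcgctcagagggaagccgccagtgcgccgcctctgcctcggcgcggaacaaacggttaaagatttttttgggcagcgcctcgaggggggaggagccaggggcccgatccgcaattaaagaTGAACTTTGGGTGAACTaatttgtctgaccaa
Nanog: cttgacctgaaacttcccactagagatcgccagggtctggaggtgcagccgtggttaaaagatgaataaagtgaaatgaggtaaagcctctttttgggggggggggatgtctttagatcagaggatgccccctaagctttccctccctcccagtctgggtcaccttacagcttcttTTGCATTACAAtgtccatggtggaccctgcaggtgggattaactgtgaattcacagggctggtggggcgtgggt

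The Rarb repeat starts 53 bases before the start, the Cyp26a1 repeat 32 and the Nanog element 74. A further RefSeq start of Nanog lies downstream, and the same element is 150 bases before it. Their genes went from 0.174, 0.117 and 0.155 to 18.6, 20.3 and 20.1 CPM, from 0.232, 0 and 0.258 to 243, 257 and 258 CPM and from 418, 422 and 403 to 144, 142 and 155 CPM in the 3 libraries of day 0 and of day 2.

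The targeted gene itself did not pass the test. Nap1l1 (chromosome 10, 111473223 to 111498150, GRCm38) stood at 621, 608 and 569 CPM at day 0 and 609, 628 and 619 CPM at day 2, a log2 fold change of 0.05 ± 0.04 that was not called (adjusted p = 0.286), and the libraries of the days overlapped. WT held 1025 ± 37.9 CPM (SD, n = 3) at day 0 and 858 ± 3.18 at day 2, and fullKO 399 ± 2.5 (SD, n = 2) and 367 ± 2.63 (n = 3). Transcripts of the gene were thus counted in both knockouts, and gene-level counts pool all transcript forms, so they do not check which form or how much protein was lost. Nap1l4, its closest relative, read 204, 205 and 197 and then 219, 216 and 211 CPM. Its log2 fold change of 0.09 ± 0.04 (edgeR adjusted p = 0.0443) lost its call with RLE scaling, with no low-count filter, with a replicate block (adjusted p = 0.0506) and when any 1 of these 6 libraries but day 2 replicate 3 was left out, with an adjusted p of up to 0.15 without day 0 replicate 3. Set, which encodes a related chaperone that masks histone tails, fell from 1426, 1445 and 1376 to 730, 743 and 751 CPM (-0.93 ± 0.03). Of 6 Nap1 family genes tested, 3 rose and 1 fell.

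**Figure D1:**
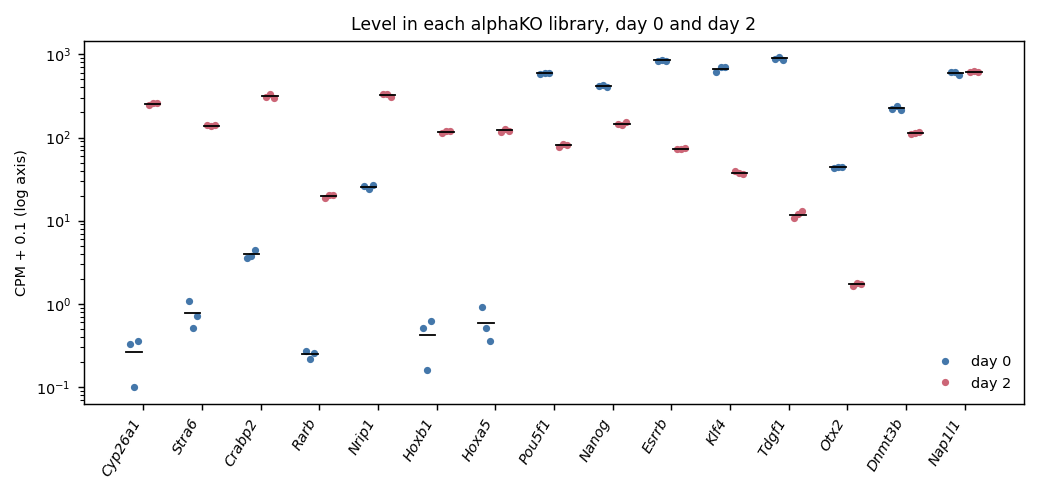
Levels of 15 genes in each alphaKO library as CPM + 0.1 on a log axis; blue points are the 3 libraries of day 0, red points the 3 of day 2, and black bars their means. The 7 retinoic acid and Hox genes at the left rise and the 7 pluripotency and methylation genes beside them fall, with no overlap between days, while the days overlap for Nap1l1.

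Genes that handle retinoic acid rose, some of them from near 0. Of 16 genes for its metabolism and transport, 14 rose and 2 fell, with a median log2 fold change of 2.99. Only 1 member fell without day 0 replicate 1 or day 2 replicate 3. Cyp26a1 (chromosome 19, 37697798 to 37701536), the main enzyme that oxidises retinoic acid, rose by 10.49 ± 0.15 on the log2 scale (adjusted p = 4.8e-43). Its relatives rose with it, Cyp26b1 from 1.39, 2.7 and 3.15 to 98.7, 99.6 and 93.4 CPM (5.31 ± 0.13) and Cyp26c1 from 0.0581, 0.117 and 0.0517 to 5.48, 5.77 and 5.39 CPM (6.08 ± 0.39). All 3 libraries of day 2 stood far above all 3 of day 0 for each of the 3 Cyp26 genes.

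Genes of retinol uptake and formation also rose. Stra6, the receptor that takes up retinol from its plasma carrier, went from 0.988, 0.411 and 0.62 to 142, 136 and 140 CPM (7.68 ± 0.13, adjusted p = 2.25e-40). Dhrs3, which reduces retinaldehyde back to retinol, went from 2.27, 2.29 and 3.36 to 87.5, 93.7 and 91.3 CPM (5.09 ± 0.11). The binding proteins split. Crabp2, which delivers retinoic acid to the nuclear receptor, rose from 3.49, 3.7 and 4.29 to 304, 335 and 301 CPM (6.35 ± 0.08), while Crabp1, a cytosolic binder of the ligand and named here after its values were seen, fell from 52, 53.4 and 69.1 to 2.05, 2.26 and 2.27 CPM (-4.72 ± 0.17).

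Among 15 retinoid and orphan receptor genes, 7 rose and 6 fell (34.5% and 33.5% of all genes), and the 3 RAR genes did not move alike. Rarb rose by 6.97 ± 0.22 on the log2 scale (adjusted p = 7.11e-30). Rarg, a receptor already present in the stem cells, fell from 209, 206 and 188 to 63.4, 60.7 and 65.5 CPM (-1.67 ± 0.06). Rara, also named after its values were seen, fell by a small step, from 85.5, 96.5 and 99.4 to 76.8, 77.4 and 79.4 CPM (-0.27 ± 0.06). CPM are not corrected for transcript length, so levels of different genes are not compared here. Nr2f2, an orphan receptor of the COUP-TF family, rose from 3.02, 3.29 and 4.81 to 52, 53.4 and 55.9 CPM (3.84 ± 0.13), and Nrip1, a corepressor that ligand-bound receptors recruit, from 25.8, 23.8 and 26.7 to 332, 334 and 309 CPM (3.67 ± 0.06).

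Of 18 early target genes, 16 rose and 1 fell. Their median log2 fold change was 3.69, against 4.26 in WT and 4.37 in fullKO. The change was called lower than in WT for 8 of them and higher for 3 (14.8% and 17.5% of all genes). It was called lower than in fullKO for 9 and higher for 2 (8.6% and 7.93% of all genes). Stra8, a gene needed for entry into meiosis in germ cells, went from 13.5, 12.7 and 11 to 394, 389 and 361 CPM (4.95 ± 0.06). Zfp703, a zinc finger repressor, rose by 6.24 ± 0.08, Foxa1, a pioneer factor of endoderm, by 6.48 ± 0.16, and Meis2, a Hox cofactor, by 5.68 ± 0.08 on the log2 scale. Each of these 4 genes had no overlap between the libraries of the days.

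Cdx1, a homeobox regulator of Hox genes and a direct target in other systems, rose little in alphaKO. It read 33.8, 34.3 and 32.1 CPM at day 0 and 42.7, 39.3 and 45.1 CPM at day 2, a rise of 0.34 ± 0.09 on the log2 scale. WT went from 4.59 ± 1.26 to 37.4 ± 6.29 CPM (3.03 ± 0.12) and fullKO from 8.4 ± 0.398 to 47 ± 0.174 CPM (2.48 ± 0.13). The change in alphaKO minus that in WT was -2.69 ± 0.16 (adjusted p of the difference = 6.43e-18), and minus that in fullKO -2.14 ± 0.16 (adjusted p = 5.29e-14). The genotypes lay apart at day 0, with alphaKO highest, and near each other at day 2.

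The Hox clusters rose along most of their length. All 12 tested genes of paralogs 1 to 4 rose, with a median of 5.55, and all 11 of paralogs 5 to 8, with a median of 4.65. Of 15 tested genes of paralogs 9 to 13 (16 listed), 9 rose, with a median of 2.05, and none fell. Hox genes are ordered along the chromosome as their domains are along the body axis, with low paralog numbers at the head end.

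Hoxb1, a marker of the fourth hindbrain segment, had the largest change of the front group, from 0.407, 0.0587 and 0.517 to 112, 120 and 120 CPM (8.42 ± 0.13). Hoxa4 rose by 7.77 ± 0.22 and Hoxa3 by 5.70 ± 0.14 on the log2 scale. In the middle of the clusters, Hoxa5 went from 0.814, 0.411 and 0.258 to 118, 128 and 119 CPM (7.95 ± 0.14) and Hoxb5 from 0.639, 0.294 and 0.31 to 75.9, 81.7 and 78.5 CPM (7.56 ± 0.16). Hoxb8 rose by 6.48 ± 0.12 and Hoxb6 by 6.79 ± 0.18. Each of these 7 genes read under 2 CPM in every library of day 0.

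Genes behind paralog 8 rose in part. Hoxc9 rose by 5.34 ± 0.16 on the log2 scale, Hoxa9 by 4.84 ± 0.16 and Hoxb9 by 4.02 ± 0.11. Hoxa10 went from 2.15, 1.41 and 2.12 to 12.2, 11.7 and 12.8 CPM (2.68 ± 0.19) and Hoxc10 from 1.16, 0.998 and 1.29 to 5.93, 7.33 and 7.66 CPM (2.59 ± 0.22). No gene of paralogs 11 and 12 was called. Meis1, a cofactor that binds DNA with Hox proteins, rose as well, from 2.5, 2.23 and 2.74 to 81.2, 82.9 and 87.9 CPM (5.07 ± 0.10).

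**Figure D2:**
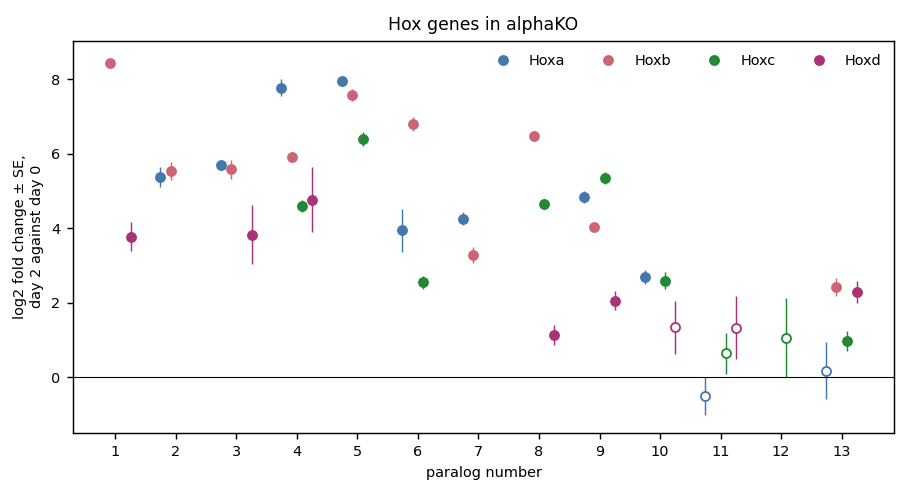
Log2 fold change ± SE of the tested Hox genes shown in alphaKO at day 2 against day 0 (vertical axis) by paralog number (horizontal axis), coloured by cluster; filled points passed an adjusted p of 0.05 and open points did not. All genes shown of paralogs 1 to 8 lie above 0, and the open points sit at paralogs 10 to 13.

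Compared with WT, 5 of the 11 genes of paralogs 5 to 8 rose more in alphaKO and none less, read against 17.5% of all genes whose change was higher than in WT and 14.8% whose change was lower. For paralogs 1 to 4 the change was called higher than in WT for 3 of 12 and lower for 2, and for paralogs 9 to 13 higher for 3 of 15 and lower for 2. Against fullKO no Hox gene of these 3 lists had a higher change, and 2, 3 and 1 had a lower one, where 7.93% and 8.6% of all genes were called. Each of these 6 genes had 9 or fewer counts over the fullKO libraries of day 0. Hoxb6 exceeded WT by 2.23 ± 0.39 (adjusted p = 1.03e-05), Hoxb8 by 1.25 ± 0.27 (adjusted p = 0.000303) and Hoxb1 by 1.90 ± 0.34 (adjusted p = 1.65e-05). For Hoxb1 the day 2 levels were close, 117 ± 4.52 CPM in alphaKO and 114 ± 1.9 in WT (SD, n = 3 each), and the start differed, 0.327 ± 0.239 against 1.24 ± 0.14 CPM. For Hoxa3 the difference was negative, -2.12 ± 0.48 (adjusted p = 0.000414), with 0.949 ± 0.347 CPM in alphaKO and 0.182 ± 0.101 in WT at day 0. In fullKO at day 0 no count of Hoxb2 or Hoxb5 was seen, so fitted differences between the knockouts are not given for them. Hoxb2 reached 15.8 ± 1.53 CPM at day 2 in alphaKO and 12.3 ± 0.596 in fullKO.

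Nearly all genes of naive pluripotency fell. Naive pluripotency is the ground state of cultured embryonic stem cells, held by a network around Nanog, Klf and Esrrb factors. Of 15 members, 14 fell and 1 rose, with a median of -2.55. Their summed level was 4834, 5006 and 4816 CPM in the libraries of day 0 and 1299, 1266 and 1289 CPM at day 2. Klf4, a reprogramming factor, fell from 618, 696 and 697 to 39.5, 37.1 and 36.5 CPM (-4.15 ± 0.06, adjusted p = 3.42e-42). Esrrb, an orphan receptor of the same network, fell from 835, 855 and 840 to 71.8, 72.8 and 75 CPM (-3.53 ± 0.04). Nr0b1 fell by 4.04 ± 0.11 on the log2 scale, and Nr5a2, which binds upstream of Pou5f1, fell by 3.10 ± 0.08.

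Nanog (chromosome 6, 122707489 to 122714633) fell less, from 418, 422 and 403 to 144, 142 and 155 CPM (-1.49 ± 0.05, adjusted p = 4.06e-29). Tfcp2l1, a factor downstream of LIF signalling and named after its values were seen, still read 434, 417 and 435 CPM at day 2 after 1493, 1531 and 1429 at day 0 (-1.79 ± 0.04). Tbx3, also named after its values were seen, was the member that rose, from 243, 257 and 246 to 312, 315 and 305 CPM (0.32 ± 0.05).

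Of 14 genes shared by naive and primed states, 12 fell and 2 rose. Pou5f1 (chromosome 17, 35506018 to 35510772), which encodes Oct4, fell from 587, 590 and 603 to 76.7, 82.7 and 81.3 CPM (-2.89 ± 0.05, adjusted p = 2.81e-38), and Sox2, its partner, from 685, 701 and 699 to 117, 127 and 122 CPM (-2.51 ± 0.05). Tdgf1, a Nodal co-receptor, had the steepest fall of the list, from 884, 923 and 866 to 10.6, 11.8 and 12.9 CPM (-6.24 ± 0.07). Fgf4, the autocrine ligand of the epiblast, fell by 3.41 ± 0.08 on the log2 scale, and Utf1, a chromatin factor of stem cells, fell by 3.63 ± 0.07. Dppa2, an epigenetic priming factor named after its values were seen, rose from 59.7, 60.5 and 59.2 to 104, 107 and 109 CPM (0.83 ± 0.06).

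Most of these genes fell less than in WT. The change in alphaKO minus that in WT was called above 0 for 11 of 15 naive and 12 of 14 general members, and below 0 for 3 and 0. Over all genes it was called above 0 for 17.5% and below 0 for 14.8%. At day 0 the naive members summed to 4816 to 5006 CPM in alphaKO and 2082 to 2220 CPM in WT. Pou5f1 at day 2 was 80.2 ± 3.16 CPM in alphaKO and 24.7 ± 1.32 in WT (SD, n = 3 each) after 594 ± 8.51 and 615 ± 4.92 at day 0, a difference of change of 1.75 ± 0.08 (adjusted p = 2.66e-21). For Nanog the difference was 2.06 ± 0.08 (adjusted p = 2.77e-24), with 228 ± 9.22 CPM in WT at day 0 and 19.5 ± 1.23 at day 2. Nr0b1 differed by 2.46 ± 0.26 and Fgf4 by 2.57 ± 0.17. Klf4 fell more than in WT, from 670 ± 45.3 CPM in alphaKO and 157 ± 8.46 in WT at day 0, a difference of -1.44 ± 0.09 (adjusted p = 1.02e-16). The change was called lower than in fullKO for 12 of 15 naive and 10 of 14 general members, and higher for 2 and 1. Over all genes these shares were 8.6% and 7.93%. Pou5f1 and Nanog both fell more than in fullKO, with a difference of -0.44 ± 0.08 for Pou5f1 (adjusted p = 4.52e-05) and of -0.82 ± 0.07 for Nanog (adjusted p = 4.84e-12). At day 2 fullKO read 120 ± 4.32 CPM of Pou5f1 and 342 ± 23.3 CPM of Nanog, so alphaKO lay between WT and fullKO for both.

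Genes of the formative and primed epiblast, the states that follow the naive one, also changed differently than in WT. In alphaKO 5 of 12 rose and 6 fell, whereas in WT 2 rose and 9 fell (36.7% and 34.0% of all genes). The change in alphaKO minus that in WT was called above 0 for all 12 (17.5% of all genes). Against fullKO it was called above 0 for 4 and below 0 for 2 (7.93% and 8.6% of all genes). Pou3f1, an early primed factor, went from 13.1, 13.2 and 11.2 to 25.8, 20.2 and 23.9 CPM in alphaKO (0.90 ± 0.11) and from 70.4 ± 3.82 to 12.8 ± 1.4 CPM in WT (-2.46 ± 0.10), a difference of 3.37 ± 0.15 (adjusted p = 2.49e-22). Otx2, which opens formative enhancers, fell from 43.4, 44.1 and 44.4 to 1.54, 1.67 and 1.62 CPM (-4.76 ± 0.14) and in WT from 95.4 ± 11.8 to 0.513 ± 0.19 CPM (-7.52 ± 0.16). Lef1, a Wnt effector, read 8.37, 8.93 and 7.18 and then 10.9, 8.46 and 8.9 CPM, which was not called (0.21 ± 0.12), while WT fell from 88.5 ± 4.13 to 21.6 ± 0.377 CPM. For these 3 genes every alphaKO library of day 0 read below the WT mean of that day, a difference that was not tested here.

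Other members of that list rose. Sall2, a zinc finger factor, went from 16.8, 19 and 17.7 to 186, 194 and 212 CPM (3.47 ± 0.08) and Cdh2, the neural and mesenchymal cadherin, from 7.09, 7.93 and 8.63 to 122, 124 and 129 CPM (3.98 ± 0.08).

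**Figure D3:**
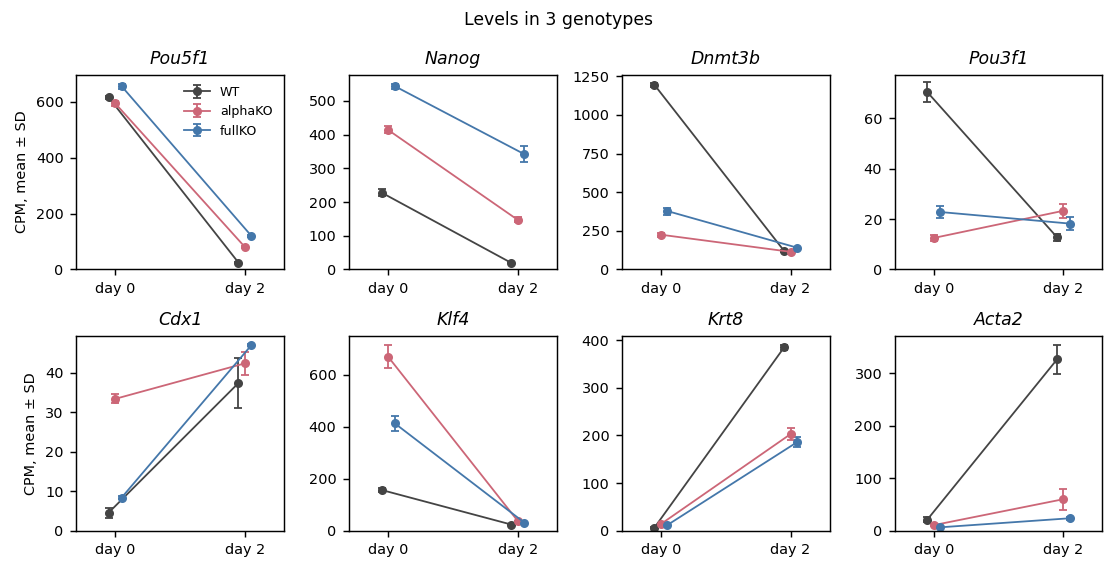
Mean ± SD in CPM at day 0 and day 2 of 8 genes in WT (dark grey), alphaKO (red) and fullKO (blue), 3 libraries a point and 2 for fullKO at day 0. Pou3f1 falls in WT from a high start, Cdx1 starts highest in alphaKO, and Krt8 and Acta2 end higher in WT.

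Markers of several lineages rose. Of 20 markers of primitive and extra-embryonic endoderm, the yolk sac lineage that retinoic acid readily evokes in culture, 17 rose and 0 fell, and their summed level went from 1885, 2071 and 2189 CPM to 4492, 4680 and 4799 CPM. Foxa2, a pioneer factor of endoderm, rose from 0.291, 0.529 and 0.258 to 22.5, 21.6 and 21.3 CPM (5.91 ± 0.20) and Sox17 from 0.755, 1.7 and 1.71 to 13.5, 13.8 and 16.5 CPM (3.38 ± 0.18). Cubn, the endocytic receptor of visceral endoderm, rose from 19.9, 23.8 and 18.8 to 206, 221 and 234 CPM (3.41 ± 0.11). In WT the sum was 1871 to 2211 CPM at day 0 and 3015 to 3042 at day 2. The change was called higher than in WT for 7 of the 20 and lower for 4 (17.5% and 14.8% of all genes). It was called higher than in fullKO for 2 and lower for 9 (7.93% and 8.6% of all genes). Sox17 rose less than in WT, a difference of -3.33 ± 0.46 (adjusted p = 1.42e-07), from 1.39 ± 0.548 CPM in alphaKO and 0.172 ± 0.194 in WT.

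Of 21 tested genes of neural progenitor patterning (24 listed), 16 rose and 2 fell, with a median of 2.72. Msx1, a dorsal homeobox gene, rose from 0.349, 0.881 and 0.879 to 145, 150 and 155 CPM (7.71 ± 0.13). Pax6, a neural and eye regulator, rose from 0.755, 1.23 and 0.827 to 17.8, 19.7 and 16.9 CPM (4.27 ± 0.18), more than in WT by 2.47 ± 0.25 (adjusted p = 6.22e-11) and more than in fullKO by 2.39 ± 0.27 (adjusted p = 6.13e-09). Olig2, later a factor of motor neuron progenitors, fell from 36.2, 30.8 and 32.1 to 3.88, 3.4 and 2.54 CPM (-3.34 ± 0.14). Of 17 tested genes of proneural factors and neurons, 5 rose and 4 fell (34.5% and 33.5% of all genes). Stmn2, a regulator of neurite growth, fell from 318, 316 and 328 to 52.1, 53.8 and 58 CPM (-2.55 ± 0.06) and Elavl3, a neuronal RNA-binding protein, from 20, 19.9 and 20.7 to 5.25, 4.1 and 3.94 CPM (-2.19 ± 0.16).

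In the trophoblast list 7 of 10 tested genes (12 listed) rose and 2 fell, while their summed level went from 96.2, 99.4 and 105 to 90.2, 74.8 and 81.9 CPM. Gata3 rose from 0.814, 0.646 and 0.93 to 20.8, 19.5 and 17.8 CPM (4.58 ± 0.17), Krt7 rose by 4.82 ± 0.30 and Eomes fell from 15.2, 17.4 and 13.9 to 8.96, 9.05 and 8.68 CPM (-0.79 ± 0.12). Among 16 tested genes of the primitive streak and mesoderm (18 listed), 8 rose and 2 fell, or 1 fell without day 0 replicate 2, day 0 replicate 3 or day 2 replicate 3. Lhx1, an organiser and mesoderm factor, rose from 0.697, 0.47 and 0.775 to 13.1, 14.4 and 16 CPM (4.46 ± 0.21).

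Most epithelial genes had a lower change than in WT. Krt8 went from 12.1, 13.8 and 16 to 216, 200 and 193 CPM (3.86 ± 0.10), Krt18, its partner in simple epithelia, from 9.36, 10.7 and 10.5 to 272, 260 and 244 CPM (4.66 ± 0.11), and Dsp, the desmosome plaque protein, from 9.7, 14.4 and 14.9 to 185, 174 and 170 CPM (3.75 ± 0.09). Of 14 epithelial genes, 7 rose and 4 fell, with a median of 0.44 against 1.45 in WT. The genes given values are among those that rose most, and 3 members fell at least 2-fold, with a lowest log2 fold change of -2.84. The difference from WT was called lower for 12 of the 14 and higher for 0 (14.8% and 17.5% of all genes). In fullKO the median was 0.25, and the difference from fullKO was called higher for 2 and lower for 0 (7.93% and 8.6% of all genes). Krt8 was 385 ± 4.94 CPM in WT at day 2, a difference of change of -2.04 ± 0.17 (adjusted p = 3.11e-13), and the differences were -0.45 ± 0.17 for Krt18 (adjusted p = 0.0349) and -1.18 ± 0.14 for Dsp (adjusted p = 8.67e-09). For Krt7, the member with the largest rise, the difference was not called (-1.25 ± 0.64, adjusted p = 0.139), except with DESeq2 (-1.23) and without WT day 0 replicate 3 (-2.02). The Krt18 difference lost its call without WT day 0 replicate 3 (-0.30, adjusted p = 0.193), WT day 2 replicate 1, alphaKO day 0 replicate 2 or 3 or alphaKO day 2 replicate 3.

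Smooth muscle contractile genes, too, rose less than in WT. Of 10 genes 9 rose, and all 10 had a change called lower than in WT (14.8% of all genes). Their median was 2.44, against 3.18 in WT and 1.68 in fullKO. The change was called higher than in fullKO for 2 and lower for 0 (7.93% and 8.6% of all genes). Acta2, smooth muscle actin, went from 11.7, 9.28 and 11.1 to 51.3, 46.3 and 82.6 CPM (2.49 ± 0.20), and in WT from 21.1 ± 4.3 to 326 ± 27.5 CPM, a difference of -1.47 ± 0.28 (adjusted p = 4.99e-05). Day 2 replicate 3 held the highest Acta2 value. Tpm1, a tropomyosin, went from 92.9, 89.5 and 96.7 to 855, 794 and 783 CPM (3.12 ± 0.07).

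Fibroblast markers fell, and the libraries of day 0 differed in them. Of 15 markers 14 fell and 0 rose. Their summed level was 1526, 1649 and 2360 CPM at day 0, with replicate 3 highest, and 350, 342 and 415 CPM at day 2, and no marker was at 0 in any of the 6 libraries. Col3a1, a fibrillar collagen, fell from 241, 250 and 385 to 18.8, 16.4 and 22.3 CPM (-3.93 ± 0.14), Col6a1 from 91.1, 97.3 and 155 to 5.14, 3.88 and 5.29 CPM (-4.59 ± 0.16) and Thy1, a surface antigen of fibroblasts, from 97.3, 109 and 152 to 5.08, 4.64 and 8.41 CPM (-4.30 ± 0.15). Pdgfrb read 28.8, 32.2 and 42.8 and then 37.9, 34.1 and 37.1 CPM and was not called, but without day 0 replicate 3 it was, at 0.25. Fn1, fibronectin, is not among these 15 markers and fell from 3625, 4208 and 4186 to 1902, 1816 and 1827 CPM (-1.12 ± 0.05). It belongs to the list of 8 mesenchymal transition genes, of which 6 rose and only 1 fell. Without replicate 3 the median of the fibroblast list was -2.07, against -2.26 with it. In WT the sum was 2812 to 3738 CPM at day 0 and 898 to 960 at day 2. In fullKO it was lower from the start, 338 to 499 CPM at day 0 and 192 to 206 at day 2. The change in alphaKO minus that in WT was called below 0 for 10 of the 15 and above 0 for 1 (14.8% and 17.5% of all genes). Minus that in fullKO it was called below 0 for 7 and above 0 for 0 (8.6% and 7.93% of all genes). The labels do not say whether feeder fibroblasts were used, and the part of fibroblast transcripts in other falls was not tested.

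**Figure D4:**
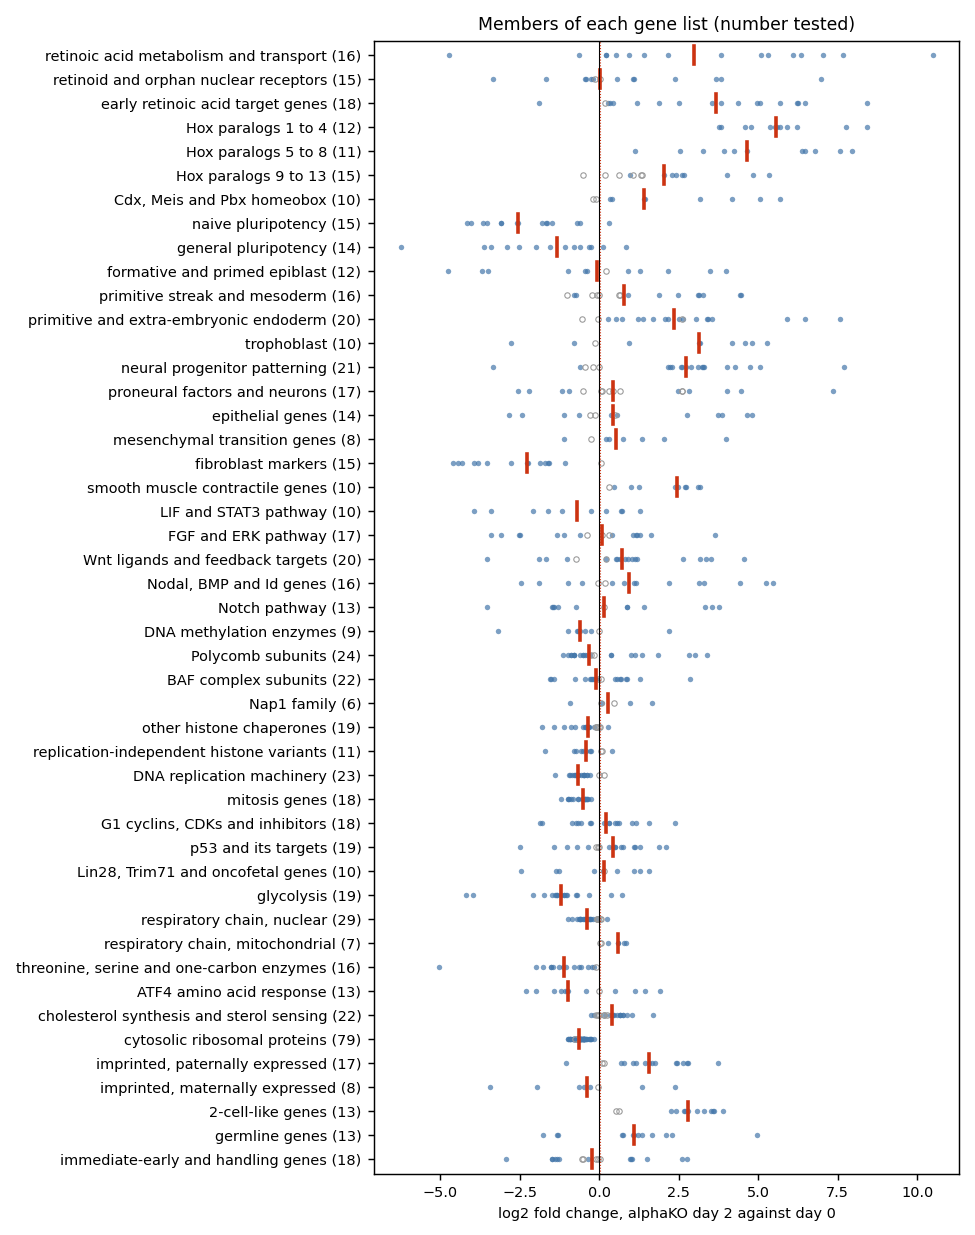
Log2 fold change in alphaKO at day 2 against day 0 (horizontal axis) of each tested member of 47 gene lists (number tested in brackets); filled points passed an adjusted p of 0.05, open points did not, red bars are list medians and the dotted line is the median of all genes. The medians of the retinoic acid metabolism, early target, Hox, endoderm and neural progenitor lists lie to the right of 0, that of the receptors lies near 0, and those of the pluripotency, fibroblast, replication, glycolysis and ribosomal protein lists lie to the left.

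Genes of the LIF and FGF pathways moved both ways, where 34.5% of all genes rose and 33.5% fell. LIF acts through Stat3 to keep mouse stem cells undifferentiated, and of 10 genes of that pathway 4 rose and 6 fell. Socs3, its feedback inhibitor, fell from 146, 146 and 163 to 11, 10.4 and 8.74 CPM (-3.92 ± 0.09) and Stat3 from 149, 150 and 152 to 50.8, 49.5 and 48.2 CPM (-1.61 ± 0.05). FGF signalling pushes cells toward differentiation, and 7 of its 17 genes rose and 7 fell. The feedback target Spry4 fell from 242, 239 and 249 to 43.2, 41.8 and 42.3 CPM (-2.52 ± 0.07), less than in WT (difference 1.97 ± 0.10, adjusted p = 1.55e-19), and Etv4, an ERK effector, from 234, 232 and 221 to 26.8, 26 and 27.7 CPM (-3.09 ± 0.06). Fgfr2 rose from 3.89, 5.87 and 6.62 to 65.3, 70.7 and 68.6 CPM (3.63 ± 0.10).

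Wnt ligand and feedback genes rose more often than they fell, 14 against 4 of 20. Wnt3 rose from 1.05, 0.352 and 0.62 to 8.27, 6.47 and 6.2 CPM (3.36 ± 0.22) and Wnt6 from 0.93, 1.88 and 1.71 to 9.93, 8.35 and 9.82 CPM (2.63 ± 0.22). Wnt6 rose less than in WT, which reached 34.1 ± 2.16 CPM, a difference of -3.52 ± 0.44 (adjusted p = 9.6e-09). Dkk1, a secreted inhibitor, rose from 0.872, 1.82 and 1.09 to 11.5, 11 and 11.2 CPM (3.16 ± 0.19), and Notum, which inactivates Wnt ligands, fell from 14.8, 16.6 and 13 to 1.31, 1.67 and 0.863 CPM (-3.52 ± 0.21).

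Bone morphogenetic protein (BMP) ligands moved in opposite directions. Bmp4 fell from 58.9, 59.4 and 58 to 11.7, 10 and 10.1 CPM (-2.47 ± 0.09) and Bmp2 rose from 0.116, 0.294 and 0.258 to 9.59, 8.19 and 8.36 CPM (5.24 ± 0.32). Id2, a BMP target that blocks helix-loop-helix factors, rose from 3.66, 3.76 and 3.41 to 157, 168 and 154 CPM (5.47 ± 0.08) and Id1 from 15.1, 14.6 and 16.5 to 68.9, 74.5 and 67.4 CPM (2.19 ± 0.08). Of 13 tested Notch genes 6 rose and 6 fell, among them the ligand Dll1, which rose by 3.56 ± 0.19, and the receptor Notch4, which fell by 3.53 ± 0.19 on the log2 scale.

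Most DNA methylation enzymes fell. Of 9 genes 7 fell and 1 rose. Dnmt3b (chromosome 2, 153649450 to 153687730), a de novo methyltransferase that is raised in the formative state, fell from 223, 238 and 213 to 110, 114 and 118 CPM (-0.98 ± 0.05), and in WT from 1195 ± 11.6 to 120 ± 6.33 CPM (-3.32 ± 0.05). The difference of change was 2.34 ± 0.07 (adjusted p = 3.54e-29), and the difference between the genotypes' levels lay at day 0. Dnmt3a fell from 387, 377 and 330 to 233, 242 and 240 CPM (-0.61 ± 0.05), less than in WT (difference 1.91 ± 0.07, adjusted p = 8.02e-25). Tet1, a dioxygenase that starts demethylation, fell from 908, 938 and 760 to 96.9, 95.6 and 96 CPM (-3.17 ± 0.06) while its relative Tet3 rose from 9.12, 7.93 and 8.58 to 40.5, 37.8 and 38.8 CPM (2.19 ± 0.08). Uhrf1, which guides maintenance methylation, fell from 506, 508 and 487 to 301, 317 and 329 CPM (-0.66 ± 0.04).

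Polycomb genes moved both ways, with 9 of 24 that rose and 13 that fell (34.5% and 33.5% of all genes). Jarid2, a cofactor of the methyltransferase complex in stem cells, fell from 825, 806 and 687 to 445, 447 and 446 CPM (-0.79 ± 0.04). Bmi1 rose from 5.4, 5.34 and 4.96 to 41.3, 39.3 and 45.7 CPM (3.01 ± 0.09), Cbx8, a reader subunit, from 0.697, 0.646 and 0.362 to 6.28, 6.31 and 5.29 CPM (3.39 ± 0.24) and Yaf2 from 13.7, 14.9 and 13.4 to 51.2, 51.2 and 49.7 CPM (1.86 ± 0.08). In the BAF remodelling complex 8 of 22 rose and 12 fell, and Smarcd3 fell from 9.88, 9.98 and 9.82 to 4.11, 3.29 and 2.91 CPM (-1.53 ± 0.15), where WT stood at 4.38 ± 0.202 and 4.73 ± 0.695 CPM (difference -1.64 ± 0.23, adjusted p = 1.04e-07).

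Of 19 further histone chaperones 13 fell and 1 rose. Anp32a fell from 379, 387 and 382 to 109, 112 and 111 CPM (-1.79 ± 0.04) and Chaf1b, a subunit that loads histones at the replication fork, from 150, 153 and 151 to 55.1, 56.5 and 57.4 CPM (-1.42 ± 0.06). H2afz, the gene of the variant H2A.Z, fell from 707, 704 and 670 to 202, 222 and 216 CPM (-1.70 ± 0.04).

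Genes of replication, mitosis and the ribosome fell by small steps. Of 23 replication genes 21 fell and none rose, with a median of -0.66, all 18 mitosis genes fell, with a median of -0.51, and 78 of 79 cytosolic ribosomal protein genes fell, with a median of -0.64. In WT the medians were -0.86, -0.82 and -0.80. The fall was smaller than in WT by a called difference for 15 of 23, 15 of 18 and 45 of 79 of them, and larger for 0, 1 and 0. In fullKO the medians were -0.49, -0.48 and -0.76. The change was called higher than in fullKO for 0, 0 and 25 genes and lower for 1, 2 and 0. Over all genes these shares were 17.5% higher and 14.8% lower against WT, and 7.93% and 8.6% against fullKO. Ribosomal protein genes have many near-identical copies in the genome, and how their reads were counted is not given in the sources used here. Mcm10 fell from 235, 240 and 222 to 83.5, 91.7 and 89.8 CPM (-1.40 ± 0.05) and Mcm3, part of the replicative helicase, from 998, 1019 and 974 to 499, 513 and 522 CPM (-0.96 ± 0.04). Aurka, a spindle kinase, fell by 1.19 ± 0.05 on the log2 scale, and Ccnb1, a mitotic cyclin, fell by 0.97 ± 0.04.

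**Figure D5:**
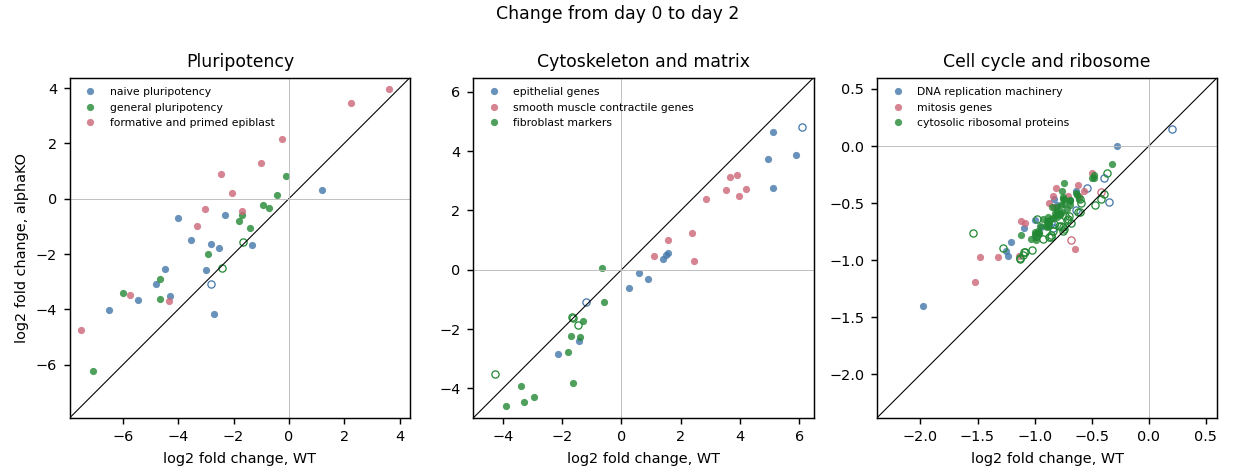
Log2 fold change from day 0 to day 2 in alphaKO (vertical axis) against that in WT (horizontal axis) for members of 9 gene lists; filled points have a called difference between the genotypes, open points do not, and the line marks equal change. Most pluripotency, replication, mitosis and ribosomal protein genes lie above the line and most epithelial, smooth muscle and fibroblast genes below it.

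G1 regulators split, with 10 of 18 that rose and 8 that fell (34.5% and 33.5% of all genes). Ccnd1 fell from 173, 168 and 153 to 45.4, 41.4 and 48.1 CPM (-1.87 ± 0.07) and Ccnd2 rose from 98, 95.6 and 114 to 296, 313 and 300 CPM (1.56 ± 0.07), both D-type cyclins. Ccne1 fell by 1.80 ± 0.05 and the inhibitor Cdkn1c, an imprinted gene, rose by 2.40 ± 0.09 on the log2 scale. Cdkn1a (chromosome 17, 29090976 to 29100727), the p53 target p21, read 61.6, 65.1 and 87.5 and then 97.1, 81.2 and 86.2 CPM, a rise of 0.30 ± 0.08 (adjusted p = 0.00157) with overlapping days that was lost without day 0 replicate 1 (0.19, adjusted p = 0.0538). WT rose from 75.3 ± 9.8 to 191 ± 3.77 CPM, a difference of -1.05 ± 0.12 (adjusted p = 6.93e-10). Of 19 genes of p53 and its targets 11 rose and 5 fell. Their change was called lower than in WT for 13 and higher for 2 (14.8% and 17.5% of all genes). It was called lower than in fullKO for 2 and higher for 4 (8.6% and 7.93% of all genes). Perp, a junction gene of that list, rose from 16.4, 16 and 22.3 to 83.7, 70.4 and 80.3 CPM (2.09 ± 0.10) and in WT by 3.63 ± 0.11. Trp53inp1 rose by 1.13 ± 0.05, and Pmaip1, which encodes the death factor Noxa, fell from 105, 112 and 107 to 39.5, 42.6 and 40 CPM (-1.41 ± 0.07).

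Glycolysis genes fell. Of 19 glycolysis genes 17 fell and 2 rose, with a median of -1.19. Pfkp, a platelet-type phosphofructokinase, fell from 439, 430 and 444 to 22.5, 25.8 and 24.1 CPM (-4.18 ± 0.06), Pdk1, which keeps pyruvate out of mitochondria, from 432, 442 and 419 to 27.4, 29.7 and 26.7 CPM (-3.95 ± 0.05) and Ldha, the lactate enzyme, from 1503, 1601 and 1478 to 344, 359 and 372 CPM (-2.09 ± 0.04). Threonine, serine and one-carbon enzymes fell in 15 of 16 cases. Tdh, the threonine dehydrogenase that mouse stem cells depend on, fell from 656, 660 and 624 to a mean of 20 ± 0.903 CPM (SD, n = 3), a change of -5.02 ± 0.06, less than in WT (difference 1.67 ± 0.12, adjusted p = 1.06e-15). Gldc, of the glycine cleavage system, fell by 1.98 ± 0.05 on the log2 scale, Shmt1 fell by 1.78 ± 0.05 and the amino acid carrier Slc7a5 fell by 1.43 ± 0.05. Mycn, a driver of growth in stem cells, fell from 163, 179 and 174 to 32.1, 30.1 and 32.1 CPM (-2.45 ± 0.06).

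Cholesterol synthesis genes rose by modest amounts, 14 of 22 with 2 that fell, and a median of 0.42 against 0.09 in WT. Hmgcs1, at the start of the pathway, rose from 248, 249 and 246 to 504, 525 and 499 CPM (1.04 ± 0.04) and Sc5d, near its end, from 38.7, 35.2 and 36.3 to 115, 120 and 121 CPM (1.69 ± 0.06). The change was called higher than in WT for 8 of the 22 and lower for 1 (17.5% and 14.8% of all genes). Against fullKO it was called higher for 14 and lower for 0, where 7.93% and 8.6% of all genes were called.

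Paternally expressed imprinted genes rose in 14 of 17 cases, with a median of 1.58. Peg10, a retrotransposon-derived gene of the placenta, rose from 272, 283 and 229 to 3555, 3459 and 3366 CPM (3.73 ± 0.05) and Peg3 from 52, 53.7 and 65.5 to 398, 384 and 371 CPM (2.75 ± 0.06). Igf2, a fetal growth factor, rose from 1.34, 2.29 and 4.34 to 18.5, 18.6 and 19.6 CPM (2.80 ± 0.17), and Grb10, a growth inhibitor on the list of maternally expressed genes, rose from 373, 398 and 382 to 983, 962 and 967 CPM (1.34 ± 0.04). Gene counts do not show from which parental copy the transcripts came.

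Genes of the 2-cell-like state, which rare stem cells pass through, rose in 11 of 13 tested cases. Zscan4d went from 1.28, 1.23 and 0.724 to 13, 12.9 and 12.6 CPM (3.58 ± 0.17). The Zscan4 genes are near-identical copies, so their single values are uncertain. The difference from WT was called for none of the 13, against 32.2% of all genes. Rhox5, a homeobox gene of the germline and placenta, fell from 27.8, 24 and 26 to 12.2, 11 and 8.79 CPM (-1.28 ± 0.12) while WT stood at 2.31 ± 0.0812 and 1.98 ± 0.57 CPM.

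Immediate-early genes, which respond to growth factors and also to handling of cells, were mixed. Of 18 genes 6 rose and 7 fell (34.5% and 33.5% of all genes). Egr1 fell from 93.4, 102 and 109 to 16.2, 11.2 and 12.6 CPM (-2.93 ± 0.13), with a difference of -2.27 ± 0.17 from WT (adjusted p = 1.2e-14) and of -2.65 ± 0.20 from fullKO (adjusted p = 8.24e-14). Fos fell from 11.6, 6.52 and 14.3 to 3.65, 3.93 and 3.99 CPM (-1.49 ± 0.22), Jun rose from 9.41, 9.57 and 15.6 to 82.7, 77.8 and 78.5 CPM (2.77 ± 0.09) and Klf6 rose from 41.3, 42.3 and 49.3 to 279, 258 and 268 CPM (2.60 ± 0.06). Day 0 replicate 3 held the highest value of Fos, Jun and Klf6 among the day 0 libraries.

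The lists not yet described were counted in the same way. Of 10 Cdx, Meis and Pbx genes 8 rose and 0 fell, and of 8 mesenchymal transition genes 6 rose and 1 fell (2 fell without day 0 replicate 1). Of 16 genes of Nodal, BMP and Id signalling 10 rose and 4 fell, and of 11 replication-independent histone variants 1 rose and 8 fell. The Lin28, Trim71 and oncofetal list had 5 genes that rose and 4 that fell of 10, and the ATF4 amino acid response list 4 and 8 of 13. In the respiratory chain 22 of 29 nuclear genes fell and 1 rose, whereas of 7 tested mitochondrial genes (13 listed) 5 rose and 0 fell, beside the higher share of mitochondrial counts at day 2. Maternally expressed imprinted genes rose in 2 and fell in 5 of 8 cases, and germline genes rose in 10 and fell in 3 of 13.

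Among the largest rises outside these lists, Stmn4, a neuronal microtubule regulator, had no count in the 3 libraries of day 0 and 15.9, 14.1 and 11.6 CPM at day 2, at least 248-fold higher than the floor of 3 counts over the group. Siah3 had no count at day 0 either and 7.25, 7.76 and 5.83 CPM at day 2, at least 124-fold higher. Gpr50, an orphan relative of the melatonin receptors, rose from 0.116, 0 and 0.155 to 28, 30.8 and 30.9 CPM (8.22 ± 0.25). From under 0.5 CPM at day 0 to 5 CPM or more at day 2 went 56 genes, 50 of them protein-coding, and 19 genes, 17 of them protein-coding, made the opposite move.

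The largest falls included Ly6g6e, which fell from 15.7, 18.3 and 20.2 to 0.228, 0.0539 and 0 CPM (-7.52 ± 0.38), Mmp3, a matrix protease of fibroblasts, which fell from 54.7, 67.1 and 82.1 to 0.228, 0.323 and 0.809 CPM (-7.19 ± 0.22), Agtr2, an angiotensin receptor, from 12.2, 13 and 17.2 to 0.114, 0.0539 and 0.162 CPM (-6.92 ± 0.34) and Col6a3 from 104, 123 and 153 to 1.26, 0.916 and 1.62 CPM (-6.64 ± 0.18). For all 4 day 0 replicate 3 was the highest library, as for the sum of the fibroblast markers, and the part of those transcripts in these falls was not tested.

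Across all genes the response of alphaKO differed from that of WT for 32.2% of genes and from that of fullKO for 16.5%, and the count with a higher change than in fullKO moved from 1460 to 825 genes without fullKO day 0 replicate 1. Of the 6349 genes that rose in alphaKO, the change was called larger than in WT for 1145, and smaller or opposite for 1097, 190 of which fell in WT. Of the 6172 that fell, the fall was called larger than in WT for 1013 and smaller or opposite for 1576, 249 of which rose in WT. A difference of at least 2-fold from WT was called in the higher direction for 538 genes (2.92%) and in the lower direction for 950 (5.16%). From fullKO such a difference was called higher for 139 genes (0.755%) and lower for 613 (3.33%).

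The largest differences from WT included genes that were low in alphaKO from the start. Enpp2, which makes lysophosphatidic acid, was at 13.1 ± 0.577 CPM in WT at day 0 and 0.217 ± 0.11 at day 2, and in alphaKO at 0.581, 0.94 and 1.19 and then 0.399, 0.269 and 0.539 CPM, a difference of 4.72 ± 0.66 (adjusted p = 1.61e-07). Its own fall in alphaKO (-1.16 ± 0.42) was lost without day 0 replicate 3 (-0.90) and without day 2 replicate 2 (-0.94). Stc1, a secreted glycoprotein, differed by 3.50 ± 0.74, with 9.62 ± 1.64 CPM in WT at day 0 and 2.51 ± 0.752 in alphaKO. Dppa3, a maternal factor that guards methylation, differed by 3.31 ± 0.24, with 52.9 ± 3.8 CPM in WT at day 0 against 5.66 ± 0.575 in alphaKO. Sp8, a zinc finger factor of limb and neural tissue, rose in all 3 genotypes and more in alphaKO, from 0.465, 0.352 and 0.0517 to 23.9, 24.8 and 25.8 CPM (6.43 ± 0.23), with a difference of 3.15 ± 0.36 from WT (adjusted p = 1.97e-09) and of 2.44 ± 0.51 from fullKO (adjusted p = 0.000477). In the other direction, Calb2, a calcium-binding protein, fell from 5.81, 6.05 and 6.62 to 0.571, 0.431 and 0.216 CPM in alphaKO and stood at 0.842 ± 0.103 and 0.69 ± 0.441 CPM in WT, a difference of -3.61 ± 0.60. Ppbp, a platelet chemokine, rose by 2.89 ± 0.37 against 6.79 ± 0.32 in WT, a difference of -3.91 ± 0.75 (adjusted p = 4.52e-05).

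Against fullKO, Hhip, an inhibitor of Hedgehog signalling, rose from 2.5, 1.88 and 2.48 to 89.9, 90.8 and 94.8 CPM (5.32 ± 0.11) and in fullKO from 9.63 ± 1.19 to 72.2 ± 6.33 CPM, a difference of 2.42 ± 0.19 (adjusted p = 1.91e-13). Aspn, a matrix proteoglycan, fell from 8.14, 7.99 and 10.3 to 0.171, 0.162 and 0.432 CPM (-5.07 ± 0.39) and was at 0.32 ± 0.201 and 0.139 ± 0.154 CPM in fullKO, a difference of -3.90 ± 1.13 (adjusted p = 0.0118) that lost its call without fullKO day 2 replicate 3 (-2.58) and without fullKO day 0 replicate 1 (-3.37).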

How the data were processed

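Counts per gene were used as deposited by the authors: whole numbers for 55471 genes in 26 libraries, of which 55230 were matched to GENCODE M21 by identifier for names and positions. Per the labels' protocols, RNA was extracted with an RNeasy Mini kit and libraries were made with a KAPA Stranded mRNA-Seq kit. Per the submitters' processing notes, FastQC, STAR 2.7.1a and mm10 were used. Which tool counted the reads, on which strand and with which gene annotation is not given in the sources used here. Overlapping and antisense genes may therefore share counts.

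Genes were kept by edgeR's filterByExpr over 9 groups (18412 genes). TMM scaling and quasi-likelihood fits (edgeR 4.0.16, R 4.3.3) used all 26 libraries with 1 mean per group (17 residual degrees of freedom). Contrasts were day 2 against day 0 in alphaKO, WT and fullKO, and alphaKO's change minus that of WT or fullKO. P-values were adjusted by Benjamini-Hochberg over all genes tested. SEs come from the fit. The pipeline was tested on simulated data in which a small set of genes changed. In these data 68.0% were called, so that run does not check scaling under so broad a change. No pair of replicates agreed within sampling noise.

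Members and lists were chosen with earlier results of these data known. The rule for named genes takes members of the 47 lists (762 symbols) with the largest changes, anchor genes and the largest changes and differences over all genes. It names 304 genes. Of the 149 in the text 144 fall under it, chosen from the 304 after values were seen, and 5 outside it are so marked. Results of some genes are not reported here. Alternatives included DESeq2 1.42.0. Promoters were read with Python 3.11.15 from RefSeq windows (GRCm38.p6).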

Additional observations from a re-analysis of the deposited data

Results flagged for a closer look

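The change from day 0 to day 2 in alphaKO was set against that in WT and in fullKO for each of the 149 genes given values above. Listed here are those whose difference of change was at least 1 on the log2 scale with an edgeR adjusted p under 0.05, 57 against WT and 24 against fullKO. Each value is the log2 change in alphaKO minus that in the other genotype, so it is above 0 where alphaKO rose more or fell less. 5 genes (Hoxb2, Hoxa5, Hoxb5, Lhx1 and Dkk1) had 3 or fewer counts in a group of fullKO, and no difference from fullKO is given for them. Dixon's test for an outlying sample was not applied, since no group had over 3 libraries.

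Among genes of retinoic acid handling, receptors and targets, the difference from WT was 1.01 for Cyp26b1, 1.02 for Rarg, 1.48 for Nr2f2 and -2.69 for Cdx1. The difference from fullKO was -1.29 for Crabp1, 1.66 for Crabp2, -1.94 for Dhrs3, -1.03 for Zfp703 and -2.14 for Cdx1. Of the Hox genes, Hoxb1 differed from WT by 1.90, Hoxb6 by 2.23, Hoxb8 by 1.25 and Hoxa3 by -2.12. Hoxa3 differed from fullKO by -2.33, a call lost without fullKO day 0 replicate 2 (-1.43), and the value was -6.84 without fullKO day 0 replicate 1.

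For pluripotency genes the difference from WT was 2.06 for Nanog, -1.44 for Klf4, 2.46 for Nr0b1, 1.72 for Nr5a2, 3.31 for Dppa3 and 1.75 for Pou5f1. It was 1.03 for Utf1, 2.57 for Fgf4, 2.76 for Otx2, 3.37 for Pou3f1, 2.25 for Lef1 and 1.22 for Sall2. The difference from fullKO was -1.03 for Nr5a2, -1.77 for Tdgf1, 1.23 for Pou3f1 and 1.50 for Lef1.

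Of the lineage markers, Sox17 differed from WT by -3.33, Lhx1 by -2.43, Pax6 by 2.47 and Olig2 by 1.46. Against fullKO the values were -2.10 for Eomes, -1.91 for Cubn, 2.39 for Pax6 and -2.05 for Sox17. The Sox17 difference from fullKO lost its call without fullKO day 0 replicate 1 (-2.31) or replicate 2 (-1.87). In epithelial, contractile and fibroblast genes, Krt8 differed from WT by -2.04, Dsp by -1.18, Acta2 by -1.47 and Thy1 by -1.36. Col6a1 differed from fullKO by -1.49 and Pdgfrb by -1.80.

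In signalling genes the difference from WT was 1.60 for Fgfr2, 1.97 for Spry4, -3.52 for Wnt6, -2.05 for Dkk1 and -1.92 for Bmp4. It was 1.50 for Id2, -1.63 for Notch4, 1.51 for Dll1 and -1.47 for Wnt3, the last of which lost its call without alphaKO day 0 replicate 1 (-1.04). Against fullKO Fgfr2 differed by 1.49 and Id1 by -1.11. For chromatin, cell cycle and metabolic genes the difference from WT was 2.34 for Dnmt3b, 1.91 for Dnmt3a, 1.12 for Jarid2, -1.64 for Smarcd3 and 1.15 for Ccnd2. It was -1.05 for Cdkn1a, -1.34 for Pmaip1, -1.54 for Perp, 1.13 for Mycn and 1.67 for Tdh. Pfkp differed from fullKO by -1.11.

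Of the remaining genes, Rhox5 differed from WT by -1.05, Fos by -1.59, Egr1 by -2.27, Gpr50 by 2.95 and Enpp2 by 4.72. Stc1 differed from WT by 3.50, Sp8 by 3.15, Ppbp by -3.91 and Calb2 by -3.61. Mmp3 differed from WT by -1.45, a call lost without WT day 2 replicate 2 (-1.18) or alphaKO day 2 replicate 1 (-1.15). Against fullKO the values were -2.65 for Egr1, 2.44 for Sp8, 2.42 for Hhip and -3.90 for Aspn. Igf2 differed from fullKO by -1.46, and not by a called amount without alphaKO day 0 replicate 3 (-0.88).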

How the results depend on the processing

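Under each alternative run (RLE scaling, no low-count filter, a filter of 1 CPM in 3 libraries, DESeq2, only the groups compared, a replicate block, and each of these libraries left out in turn) the counts of genes that rose or fell in alphaKO stayed within 1.5 times the reported ones, from 5848 to 6349 higher and from 5749 to 6218 lower. Scaling moved the median of all genes by 0.01 or less on the log2 scale. Leaving out 1 library moved 1 count over all genes further: the genes with a higher change in alphaKO than in fullKO numbered 825 to 1425 against 1460, with 825 without fullKO day 0 replicate 1, which leaves that group with 1 library whose spread is taken from the other groups. The cause was not tested. The 47 list medians were taken again with each library left out. In 57 cases they moved by at least the SD between the day 2 libraries, in 1 the sign changed and in 224 neither held. Without alphaKO day 0 replicate 1 or 3, the median of Hox paralogs 1 to 4 was 5.17 or 6.18 against 5.55. That of neural progenitor patterning was 2.36 without replicate 2 and 3.06 without replicate 3, against 2.72. The median of the retinoid and orphan receptors went from 0.04 to between -0.01 (without alphaKO day 0 replicate 1) and 0.09 (without alphaKO day 0 replicate 3) when 1 library was left out. The Notch median went from 0.16 to -0.28 with 1 CPM in 3 libraries and to -0.26 with only the groups compared, where fewer genes were tested. That of retinoic acid metabolism and transport went from 2.99 to 2.16 with 1 CPM in 3 libraries, 3.85 with only the groups compared and 3.54 without alphaKO day 0 replicate 3. The mesoderm genes that fell numbered 1 instead of 2 with DESeq2 and with only the groups compared. Among the genes named, the own change in alphaKO crossed the threshold in some setting for Nap1l4, Cdkn1a, Enpp2 and Pdgfrb, and for no other gene. Same-numbered libraries of days 0 and 2 shared little of their deviations (r = -0.0257, 0.0386 and 0.0735 in alphaKO over 11196 genes). Day 0 replicates 2 and 3 of alphaKO correlated best with their own number at day 2. Day 0 replicate 1 correlated best with day 2 replicate 2 (r = 0.0667). Whether same-numbered libraries share a culture was not tested. With the replicate block 6316 genes rose and 6143 fell. Depth limits genes near 0: with 17400607 or more counts a library, a group of 3 libraries without a count was held to a floor of 3 counts.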
